A study of Mus musculus with 143 samples.

Results

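Cholesterol and fatty acid synthesis were followed through 36 genes of the mouse genome, all of which are rows of a count table of 23337 gene rows. They were taken by name and comprise 18 genes of sterol synthesis, 8 regulators of lipid synthesis and 10 genes of fatty acid synthesis and modification. The cells were 143 microglia, the resident macrophages of the brain, from cerebella of wild-type male C57BL/6N mice at postnatal day 7. Cells of several animals were pooled, sorted by flow cytometry through a CD45lowCD11b+Gpnmb+Clec7a+ gate and sequenced singly with Smart-seq2, which covers whole transcripts and attaches no molecular identifiers. The cells share a single set of labels and none can be traced to an animal. They therefore make up 1 sample, and there is no test between classes of cells. Values on plate 1 (95 cells) and plate 2 (48 cells) stand in for a check of technical spread. The age label gives day 7, although the name of the sequenced pool includes "adult".

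Sterol synthesis condenses acetyl-CoA into mevalonate, turns mevalonate into isoprenoid units, joins these to squalene and closes and trims the sterol ring to cholesterol. Fatty acid synthesis draws on the same cytosolic acetyl-CoA, and elongases and desaturases then lengthen the chains and insert double bonds. Both branches are controlled by the SREBP transcription factors, which Scap escorts from the endoplasmic reticulum when sterol is low and Insig proteins hold back when it is high, and by the oxysterol-sensing liver X receptors. In brain, these routes are best known from myelin-forming oligodendrocytes and from astrocytes that supply neurons, while microglia of young white matter are known to take up lipid-rich debris.

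Cells were described by cell cycle state, which was read from genes that are not among the 36. A gene counted as present at 10 CPM (counts per 1000000 gene counts) or more. The G2/M class had at least 14 of 54 G2/M genes present, and the S-only class had at least 11 of 43 S-phase genes present without meeting the G2/M limit. This gave 30 G2/M cells (23 on plate 1 and 7 on plate 2), 25 S-only cells (17 and 8) and 88 non-cycling cells (55 and 33). The classes are ranges and not cell types: 18 cells lay within 2 genes of a limit, and 27 of the 30 G2/M cells also met the S-phase limit. Total counts per cell ran from 271190 to 1226521, with a median of 760690. G2/M cells had a median of 3741 genes detected, S-only cells 3552 and non-cycling cells 2978.5. Gene counts per spike-in count, a measure of RNA recovered, had medians of 28.1, 27.04 and 21.8 in the same order of classes. Among marker genes of other cells, 6 of 10 oligodendrocyte markers were at 0 in all cells (Mog, Mobp, Cldn11, Mal, Opalin and Ugt8a), as were 5 of 7 markers of oligodendrocyte precursors, 2 of 7 of astrocytes and 3 of 5 of endothelial cells. None of the 6 neuronal markers was at 0, and Rbfox3 was the most widely read of them, in 5.59% of cells. All 9 microglial markers were read, with a median share of 100% of cells.

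Promoters of 3 genes are shown because the pooled levels of these genes differed between cell cycle classes and they come from different steps of the sterol route. The difference of Hmgcs1 was weaker without single cells and with other class limits, as given below. Each window holds 300 bases, from 250 before to 50 after the start site in RefSeq (build GRCm38.p6), written along the strand of the gene. Capitals mark matches, on either strand, to the core of the sterol regulatory element, TCACNCCAC, and to the NF-Y motif CCAAT, which reads ATTGG from the other strand. The windows are chr17:12960676-12960975 on the minus strand for Acat2, chr13:119690101-119690400 on the plus strand for Hmgcs1 and chrX:72918271-72918570 on the plus strand for Nsdhl.
Acat2: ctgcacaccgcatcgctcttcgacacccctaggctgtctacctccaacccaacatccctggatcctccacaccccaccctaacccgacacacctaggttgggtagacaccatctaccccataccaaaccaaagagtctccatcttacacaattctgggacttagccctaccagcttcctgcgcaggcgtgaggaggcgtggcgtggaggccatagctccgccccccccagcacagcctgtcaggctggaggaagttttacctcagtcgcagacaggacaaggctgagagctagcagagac
Hmgcs1: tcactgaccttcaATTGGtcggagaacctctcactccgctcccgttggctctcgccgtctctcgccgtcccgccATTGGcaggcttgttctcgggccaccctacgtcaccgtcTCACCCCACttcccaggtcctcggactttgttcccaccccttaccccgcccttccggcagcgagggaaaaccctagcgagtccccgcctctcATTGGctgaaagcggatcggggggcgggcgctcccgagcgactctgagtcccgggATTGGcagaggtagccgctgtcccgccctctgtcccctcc
Nsdhl: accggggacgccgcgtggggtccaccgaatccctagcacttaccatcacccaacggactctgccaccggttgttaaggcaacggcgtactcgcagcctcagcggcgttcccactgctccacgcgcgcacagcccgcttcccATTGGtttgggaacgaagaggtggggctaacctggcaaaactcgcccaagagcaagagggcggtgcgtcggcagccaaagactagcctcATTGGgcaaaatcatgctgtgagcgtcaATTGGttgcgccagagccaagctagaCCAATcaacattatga

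The 3 windows differ in these letters. The Hmgcs1 window held 4 CCAAT matches and a match to the sterol element upstream of the start site. The Nsdhl window held 4 CCAAT matches and the Acat2 window none, and neither held the sterol element. RefSeq windows were at hand for 28 of the 36 genes. CCAAT was found in 13 of 14 sterol synthesis genes, 4 of 7 regulators and 4 of 7 fatty acid genes, against 41.1% of 27025 genes with a window. The GC box GGGCGG was found in 12 of 14, 5 of 7 and 3 of 7 genes of the same lists, against 38.2% of all. The sterol element was matched in 1 of 14 sterol synthesis genes, Hmgcs1, and in none of the 7 regulators or 7 fatty acid genes, against 1.44% of all. The direct-repeat motif of liver X receptors was in no window of the 28 genes and in 0.0148% of all genes. A match is a string of letters in this window and not a bound site. Only these exact strings were searched, so a gene without a match may still hold an element with other letters or outside its window.

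Most of the 36 genes were read in a minority of cells. Over all 143 cells, 34 genes had a read in some cell, and 5 reached 50% of cells: the desaturase Scd2, the elongase Elovl1, the sterol isomerase Ebp, the liver X receptor gene Nr1h2 and the mitochondrial thiolase Acat1. A further 18 were read in fewer than 20% of cells, 2 of which were never read. The median share of cells with a read was 15.7% over the 18 sterol synthesis genes, 19.2% over the 8 regulators and 26.6% over the 10 fatty acid genes, against 16.1% over the 12801 genes of the table with any count. Together the 36 genes took 0.157% of gene counts, of which sterol synthesis took 0.0511%, the regulators 0.0204% and fatty acid synthesis 0.0855%. A cell without a read may still hold the transcript.

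**Figure D1:**
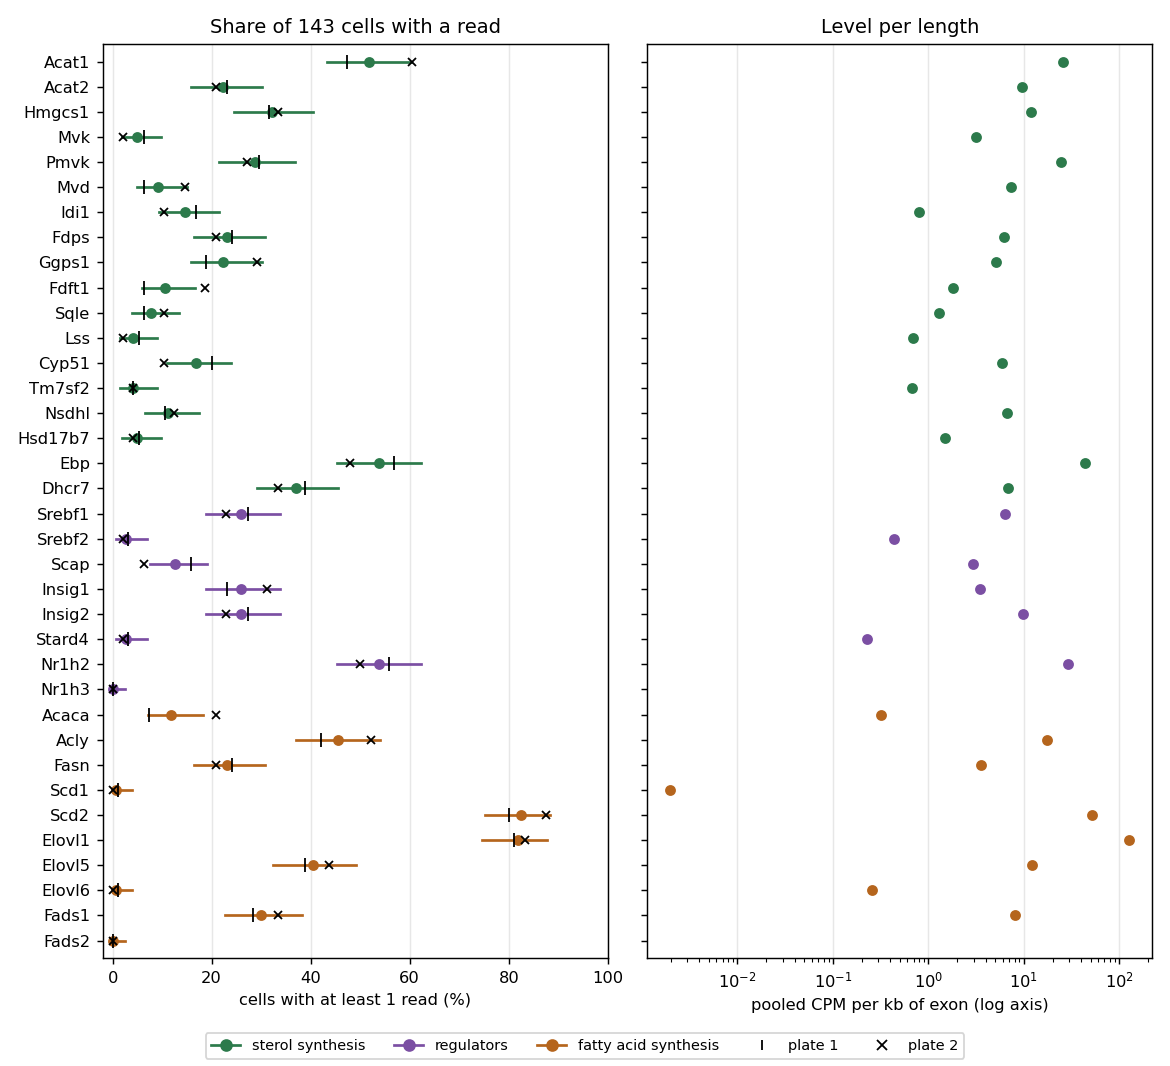
Detection and level of the 36 genes over all 143 cells. Left, share of cells with at least 1 read (%), with the exact 95% interval as a line and the shares on plate 1 and plate 2 as a bar and a cross. Right, pooled CPM per kilobase of exon on a log axis; Nr1h3 and Fads2, at 0, have no point, and the point of Scd1 rests on 1 count. Scd2 and Elovl1 stand highest on both axes, and most sterol synthesis genes lie below 40% of cells.

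Levels were compared between genes as pooled CPM (a gene's counts summed over cells, per 1000000 gene counts) per kilobase of exon, for which the median over 11518 genes was 3.39. At the head of the sterol route, the thiolase Acat1 had 25.7 CPM per kb and was read in 74 cells, while its cytosolic counterpart Acat2, which makes the acetoacetyl-CoA used for mevalonate, had 9.68 and was read in 32. Hmgcs1, the synthase that adds the next acetyl unit, had 11.9 CPM per kb and was read in 46 cells. The kinases that follow were uneven, with Mvk at 3.18 CPM per kb in 7 cells and Pmvk at 24.4 in 41. The decarboxylase Mvd had 7.28 CPM per kb and was read in 13 cells.

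The isoprenoid and squalene enzymes follow. The isomerase Idi1 had 0.81 CPM per kb and was read in 21 cells, with a median of 12 counts in those cells. Fdps, which makes farnesyl diphosphate, had 6.19 CPM per kb in 33 cells, and Ggps1, which makes the geranylgeranyl unit used for protein prenylation, had 5.12 in 32 cells. Squalene synthase Fdft1 had 1.83 CPM per kb, squalene epoxidase Sqle 1.31 and lanosterol synthase Lss 0.68, and these were read in 15, 11 and 6 cells. The annotated exons of Fdft1 overlap those of the abundant cathepsin gene Ctsb on the opposite strand over 18.3% of their bases. The sources used here do not say whether counting used strand.

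Among the enzymes that trim the sterol ring, Ebp was the most abundant gene of the sterol list, with 43.6 CPM per kb in 77 cells. The terminal reductase Dhcr7 had 6.78 CPM per kb in 53 cells and the lanosterol demethylase Cyp51 5.92 in 24 cells. Nsdhl, a dehydrogenase that removes methyl groups from the ring, had 6.65 CPM per kb in 16 cells. The reductases Hsd17b7 and Tm7sf2 had 1.49 and 0.67 CPM per kb and were read in 7 and 6 cells. From Fdft1 through Hsd17b7, each enzyme was read in 24 cells or fewer, against 77 for Ebp and 53 for Dhcr7 at the end of the route.

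Of the regulators, Nr1h2, which encodes the widely expressed liver X receptor beta, led with 28.9 CPM per kb in 77 cells. Nr1h3, which encodes liver X receptor alpha, had 0 counts in 143 cells, where the exact interval of the share of cells with a read reaches 2.55%. Srebf1, whose product drives mainly fatty acid genes, had 6.30 CPM per kb in 37 cells. Srebf2, whose product drives mainly sterol genes, had 0.44 in 4 cells. Scap had 2.92 CPM per kb in 18 cells and the sterol transport gene Stard4 0.23 in 4 cells.

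The Insig genes were read in equal numbers of cells but differed in how many counts those cells had. Insig1 and Insig2 were each read in 37 cells, and both together in 11, against 9.57 if they were independent. Insig1 had 1 to 10 counts in 29 of its 37 cells, with a median of 3 counts and a highest of 331. Insig2 had 1 to 10 counts in 1 of its 37 cells, with a median of 85. The variability of Insig1, as squared coefficient of variation over that of genes of similar level on a log2 scale, was 1.17 over all cells, 1.08 on plate 1 and -0.14 on plate 2, so that its excess stood on plate 1.

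The fatty acid list held the most abundant genes. Elovl1, an elongase of saturated very long chains, had 127.9 CPM per kb and was read in 81.8% of cells. Scd2, a stearoyl-CoA desaturase that prevails in brain, had 52.2 CPM per kb and was read in 82.5% of cells. Scd1 was read in 1 cell with 1 count. Its near copies Scd3 and Scd4 had 1 and 0 counts, and how reads shared between such copies were counted is not given.

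Upstream of these, the citrate lyase Acly, which supplies cytosolic acetyl-CoA to both branches, had 17.7 CPM per kb in 65 cells. The carboxylase Acaca, which commits acetyl-CoA to fatty acid synthesis, had 0.32 CPM per kb in 17 cells, and the synthase Fasn 3.54 in 33 cells. Acly and Fasn were read together in 16 cells, against 15.0 if independent. Downstream, Elovl5 had 12.3 CPM per kb in 58 cells and the desaturase Fads1 8.02 in 43 cells. Elovl6 was read in 1 cell, and Fads2, the desaturase that precedes Fads1 in the same pathway, had 0 counts in 143 cells, where the exact interval reaches 2.55%.

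Cell cycle state was then compared, with pooled CPM per class and the log2 ratio of pooled CPM + 1 as the difference. A gene was called higher or lower when it was past 1.5-fold over all cells and had the same direction on both plates, among genes of at least 10 pooled CPM over all cells. Of the 36 genes, 22 reached that minimum, comprising 11 of sterol synthesis, 5 regulators and 6 of fatty acid synthesis. In G2/M cells against non-cycling cells, 4 of the 22 were called higher (Acat2, Hmgcs1, Srebf1 and Scap), where 20.9% of all 7616 genes tested were, and 2 were called lower (Nsdhl and Nr1h2), where 15.4% of all were. In S-only cells against the same non-cycling cells, 5 of 22 were called higher (Acat2, Pmvk, Cyp51, Nsdhl and Srebf1), where 15.6% of all were, and 2 lower (Mvd and Insig2), where 14.6% of all were. For 22 genes each count lies within a few genes of what these shares would give, so the members were called about as often as genes at large.

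**Figure D2:**
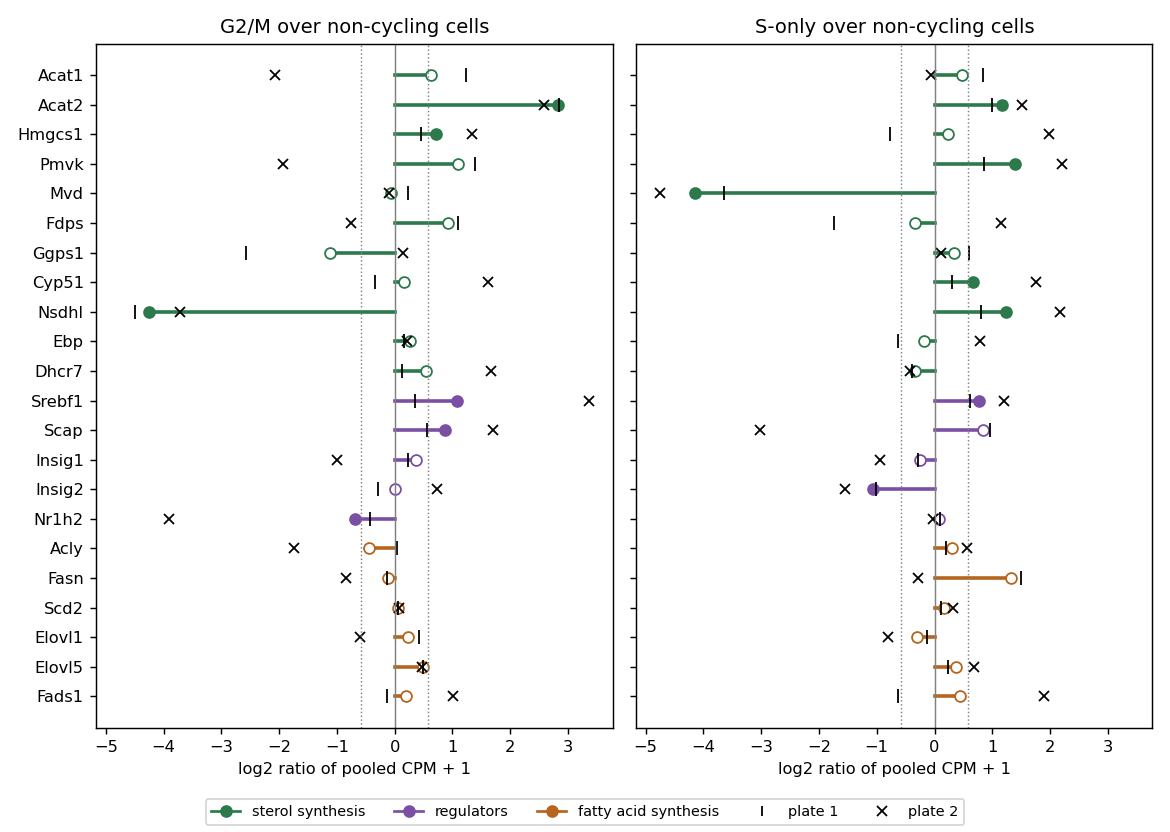
Log2 ratio of pooled CPM + 1 for the 22 genes that reached 10 pooled CPM, in G2/M over non-cycling cells (left) and S-only over non-cycling cells (right). Circles are all cells, filled where called; bars and crosses are plate 1 and plate 2, and dotted lines mark 1.5-fold. Acat2 lies right of the line on both plates in both panels. The ratios of Nsdhl in G2/M cells and Mvd in S-only cells stand against 0 counts and depend on the 1 CPM added.

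Acat2 had the largest ratio of the 22 genes in G2/M cells. It was read in 17 of 30 G2/M cells (56.7%, exact 95% interval 37.4 to 74.5), 6 of 25 S-only cells (24%, 9.36 to 45.1) and 9 of 88 non-cycling cells (10.2%, 4.78 to 18.5). Its CPM per cell had a median of 50.3 and a highest value of 327 in G2/M cells. The median was 0 in S-only cells and in non-cycling cells, with highest values of 184 and 241. The classes overlap, since some cells of each had no read and some of each had over 100 CPM.

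Pooled, Acat2 had 70.7 CPM in G2/M cells, 21.8 in S-only cells and 9.13 in non-cycling cells. The log2 ratio was 2.82 in G2/M cells (2.85 on plate 1 and 2.59 on plate 2), a 7.08-fold difference on pooled CPM + 1, and 1.17 in S-only cells (1.00 and 1.52). By plate, 12 of 23, 4 of 17 and 6 of 55 cells of the G2/M, S-only and non-cycling classes were read on plate 1, and 5 of 7, 2 of 8 and 3 of 33 on plate 2. With each of the cells left out in turn, the ratio in G2/M cells stayed between 2.66 and 3.25. With looser class limits, at 17% of list genes present, the S-only ratio of Acat2 was -0.40 and its call was lost. In G2/M cells Acat2 ranked 189 of 7616 genes by this ratio, so many genes outside lipid synthesis differed more. A near copy, Acat3, lies beside Acat2 on chromosome 17 and was read in 10 cells with 80 counts in all.

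Nsdhl differed in direction between the cycling classes. No read was found in 30 G2/M cells, where the exact interval reaches 11.6%. It was read in 8 of 25 S-only cells (32%, 14.9 to 53.5) and in 8 of 88 non-cycling cells (9.09%, 4.01 to 17.1), with pooled levels of 44.3 CPM in S-only and 18.1 CPM in non-cycling cells. The S-only ratio was 1.24 on the log2 scale (0.81 on plate 1 and 2.17 on plate 2). The looser limits ended the G2/M call, at a ratio of -0.54. The intervals of the S-only and G2/M classes do not overlap, and those of the G2/M and non-cycling classes do. The share of all genes with intervals apart in this way was not counted.

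Of the remaining genes at the head of the sterol route, Hmgcs1 was read in 13 of 30 G2/M cells, 9 of 25 S-only cells and 24 of 88 non-cycling cells. Its pooled level was 76.97 CPM in G2/M, 54.6 in S-only and 46.4 in non-cycling cells, and its highest cell was in the G2/M class at 581 CPM. The G2/M ratio of 0.72 was 0.30 without the cell that moved it most, and the call was lost on leaving out any of 3 G2/M cells, on plate 1 alone and with looser or stricter class limits. Pmvk was read in 12 of 30, 12 of 25 and 17 of 88 cells of the G2/M, S-only and non-cycling classes, at 58.4, 71.9 and 26.8 pooled CPM. Its S-only ratio was 1.39 (0.85 on plate 1 and 2.20 on plate 2), while its G2/M ratio of 1.09 was 1.40 on plate 1 and -1.94 on plate 2, where 1 of 7 G2/M cells was read.

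Mvd was read in 3 of 30 G2/M cells and 10 of 88 non-cycling cells and in none of 25 S-only cells, where the exact interval reaches 13.7%. Its pooled level was 15.95 CPM in G2/M and 16.7 in non-cycling cells. Cyp51, at 25.9 CPM in G2/M, 37.1 in S-only and 22.9 in non-cycling cells, had an S-only ratio of 0.67 that was 0.25 without the cell that moved it most. Its call was lost on leaving out any of 5 S-only cells, on plate 1 alone and with the mean of CPM over cells, and looser class limits gave -0.32. Acat1, Fdps and Ggps1 were past 1.5-fold in G2/M cells but with opposite directions on the plates, with ratios of 0.63, 0.93 and -1.12 over all cells.

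Some sterol genes did not reach the minimum level and are given by detection. Mvk was read in 5 of 30 G2/M cells (16.7%, 5.64 to 34.7), 0 of 25 S-only cells and 2 of 88 non-cycling cells (2.27%, 0.276 to 7.97). Idi1 was read in 9 of 30 G2/M cells (30.0%, 14.7 to 49.4), 6 of 25 S-only cells (24%, 9.36 to 45.1) and 6 of 88 non-cycling cells (6.82%, 2.54 to 14.3). Squalene epoxidase Sqle was read in 3 of 30, 4 of 25 and 4 of 88 cells of the G2/M, S-only and non-cycling classes, and Lss in 2, 2 and 2 cells. Fdft1 was read in 3, 4 and 8 cells, Hsd17b7 in 1, 3 and 3, and Tm7sf2 in 1, 0 and 5 cells of the same classes, with overlapping intervals throughout. The Idi1 intervals of G2/M and non-cycling cells do not overlap, although the number of genes detected per cell differed between these classes as well. How many of all genes have such intervals was not counted, so Idi1 is not set apart from other genes by this.

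**Figure D3:**
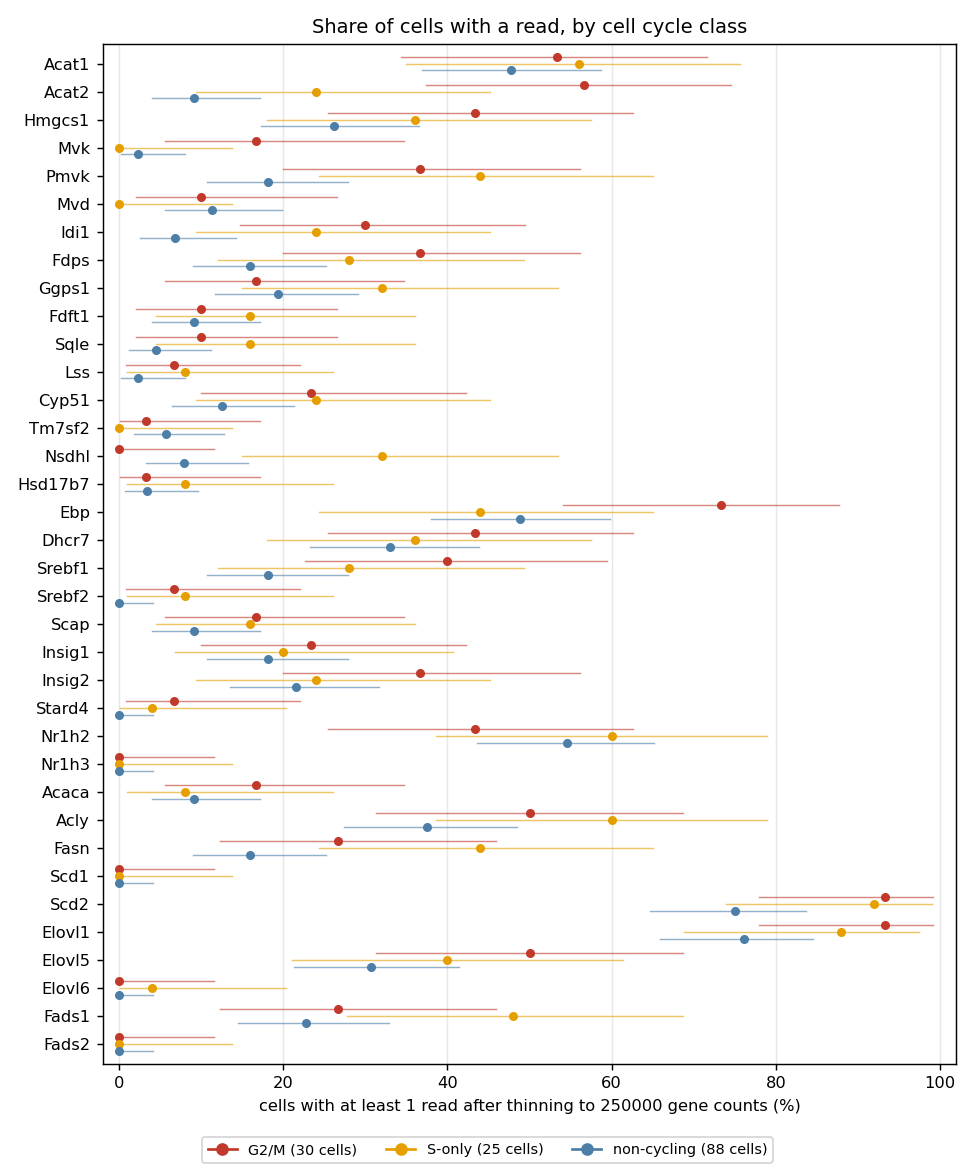
Share of cells with at least 1 read (%) for the 36 genes by cell cycle class, after each cell was thinned to 250000 gene counts, with exact 95% intervals as lines. The intervals of Acat2 and Idi1 in G2/M cells lie above those of non-cycling cells, and Nsdhl is at 0 in G2/M cells and at 32% in S-only cells. For most genes the 3 intervals overlap. The share of all genes without overlap was not counted.

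Because detection rises with depth and with RNA recovered, shares were also taken after thinning each cell to 250000 gene counts, which all 143 cells reached. The share of cells with a read was then higher in G2/M than in non-cycling cells for 18 of the 22 genes, with a median difference of 11.7 percentage points. Over all 7616 genes the median difference was 7.27 points and 74.1% were higher. In S-only cells 20 of 22 were higher than in non-cycling cells, with a median of 10.7 points, against 5.77 points and 72.4% over all genes. For Acat2 the thinned difference in G2/M cells was 47.6 points and the unthinned one 46.4 points. Gene counts per spike-in count also differed between the classes, as given above, and their part in these shares was not tested.

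Among the regulators, Srebf1 was read in 13 of 30 G2/M cells (43.3%, 25.5 to 62.6), 7 of 25 S-only cells (28%, 12.07 to 49.4) and 17 of 88 non-cycling cells (19.3%, 11.7 to 29.1). Its pooled level was 55.5 CPM in G2/M, 44.6 in S-only and 25.7 in non-cycling cells. The G2/M ratio was 1.08 over all cells, 0.36 on plate 1 and 3.37 on plate 2, so plate 1 alone was below 1.5-fold. The S-only ratio of 0.77 was 0.14 without the cell that moved it most, and the call was lost on leaving out any of 4 S-only cells.

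Scap was read in 5 of 30 G2/M, 5 of 25 S-only and 8 of 88 non-cycling cells, at 30.5, 29.9 and 16.2 pooled CPM. Its G2/M ratio of 0.87 was 0.19 without the cell that moved it most, which held 40.9% of the Scap counts of the class, and the call was also lost on plate 1 alone and with looser or stricter class limits. Nr1h2 had 64.5 CPM in G2/M, 110.2 in S-only and 104.3 in non-cycling cells, a G2/M ratio of -0.68 that was -0.43 on plate 1 and -3.91 on plate 2. Its call was lost on plate 1 alone, with looser limits and with spike-in scaling. Insig2 had 38.1 CPM in G2/M, 17.7 in S-only and 38.1 in non-cycling cells, and its S-only ratio was -1.07 (-1.01 on plate 1 and -1.55 on plate 2). Srebf2 was read in 2 G2/M cells, 2 S-only cells and 0 of 88 non-cycling cells.

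**Figure D4:**
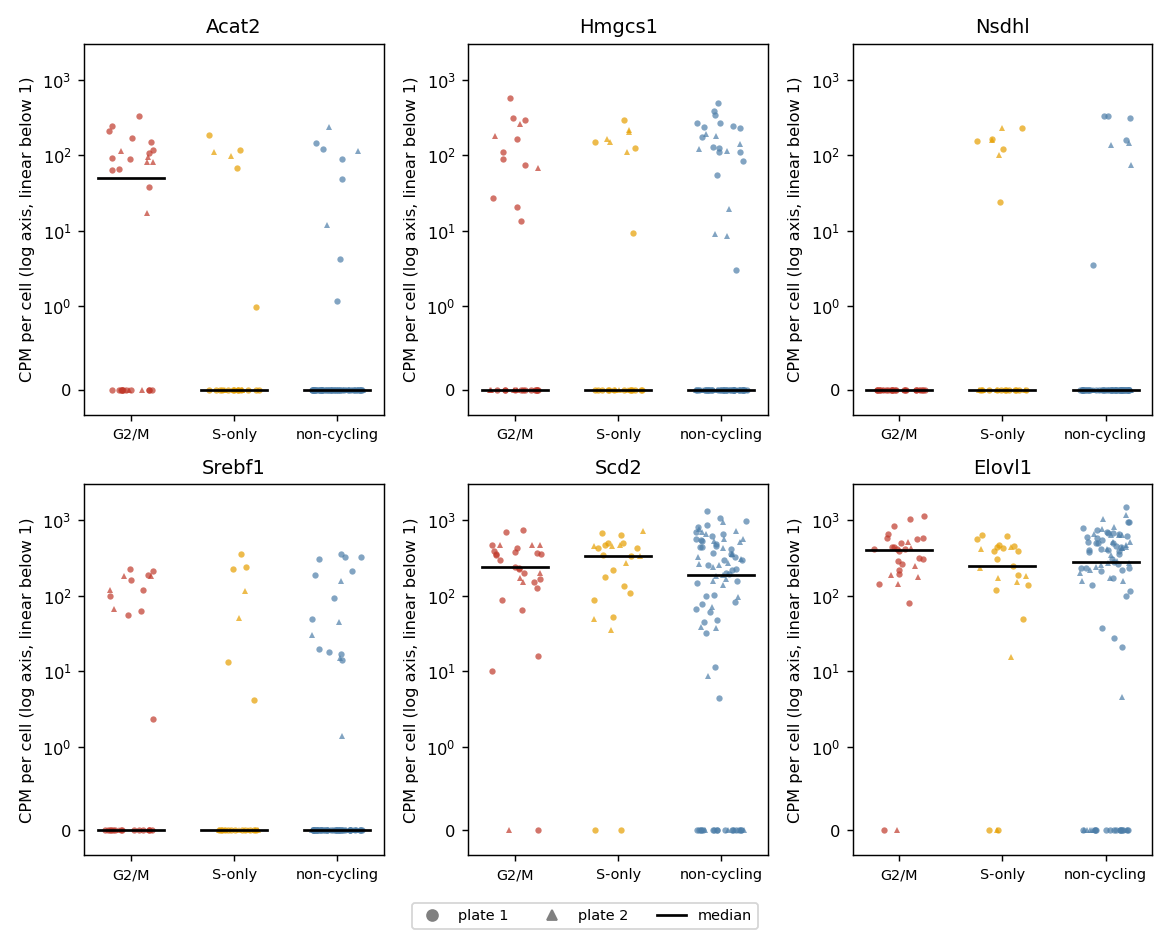
CPM per cell (log axis, linear below 1) of 6 genes in G2/M, S-only and non-cycling cells. Each point is a cell, circles on plate 1 and triangles on plate 2, and lines are medians. The median of Acat2 is 50.3 CPM in G2/M cells and 0 in the other classes, Nsdhl has no G2/M cell above 0, and Scd2 and Elovl1 are read in most cells of each class.

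None of the 6 fatty acid genes tested was called, and several differed in direction between plates. Scd2 was read in 28 of 30 G2/M cells, 23 of 25 S-only cells and 67 of 88 non-cycling cells, at 287, 312 and 277 pooled CPM, and its G2/M ratio was 0.05. Elovl1 was read in 28, 22 and 67 cells of the same classes, at 408, 281 and 348 pooled CPM. Over 1.94% of their bases, its exons overlap those of Cdc20, a gene of the G2/M list, on the opposite strand. Both genes were read in a larger share of cycling than of non-cycling cells, while their pooled levels stayed within 1.5-fold.

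Fasn had 28.1 CPM in G2/M, 78.4 in S-only and 30.6 in non-cycling cells. Its S-only ratio was 1.33 over all cells, 1.502 on plate 1 and -0.29 on plate 2, and it was not called. Plate 2 alone gave -1.73 for Acly in G2/M cells, where plate 1 gave 0.03, and 1.90 for Fads1 in S-only cells, where plate 1 gave -0.63. Over all cells, Acly had 69.4, 117.4 and 94.9 CPM in the same order of classes, with its highest cell, at 1290 CPM, among the non-cycling cells. Elovl5 had 53.5, 49.4 and 37.8 CPM and Fads1 40.4, 47.9 and 35.1 CPM. After thinning, Fasn was read in 26.7% of G2/M, 44% of S-only and 15.9% of non-cycling cells. Shares of the same classes were 26.7%, 48% and 22.7% for Fads1, 50%, 60% and 37.5% for Acly and 50%, 40% and 30.7% for Elovl5. Over the 6 genes the median difference from non-cycling cells was 14.8 points in G2/M and 19.75 in S-only cells, against 7.27 and 5.77 over all genes.

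Over each list, the median log2 ratio in G2/M over non-cycling cells was 0.55 for the 11 sterol synthesis genes, 0.37 for the 5 regulators and 0.13 for the 6 fatty acid genes, against 0.09 over all 7616 genes. In S-only over non-cycling cells it was 0.33, 0.08 and 0.34 in the same order of lists, against 0.05 over all genes. Over the same genes, the sterol median in G2/M cells was 0.23 on plate 1 and 0.15 on plate 2, both below that over all cells, and in S-only cells 0.30 and 1.15. The regulator median was 0.24 on plate 1 and 0.73 on plate 2 in G2/M cells, and 0.09 and -0.95 in S-only cells. The fatty acid median was 0.05 and -0.27 in G2/M cells, and 0.15 and 0.44 in S-only cells. With looser class limits the sterol median was 0.22 in G2/M cells and -0.18 in S-only cells, so its S-only direction turned. Scaling to spike-ins in place of gene counts moved the median of all genes to 0.48 in G2/M and 0.36 in S-only cells, and the sterol medians to 0.77 and 0.68.

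Per cell, G2/M cells had reads of a median of 5 of the 18 sterol synthesis genes, S-only cells 5 and non-cycling cells 3, with means of 4.80, 4.40 and 2.95. After thinning, the means were 4.73, 4.28 and 2.84. The summed sterol CPM per cell had a median of 610 in G2/M cells (range 0 to 1557), 537 in S-only cells (0 to 1313) and 361 in non-cycling cells (0 to 1768). The ranges overlap almost wholly, and the highest cell was non-cycling. The summed CPM of the regulators had medians of 183, 172 and 134.2, and that of the fatty acid genes 819, 1033 and 755, in G2/M, S-only and non-cycling cells.

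**Figure D5:**
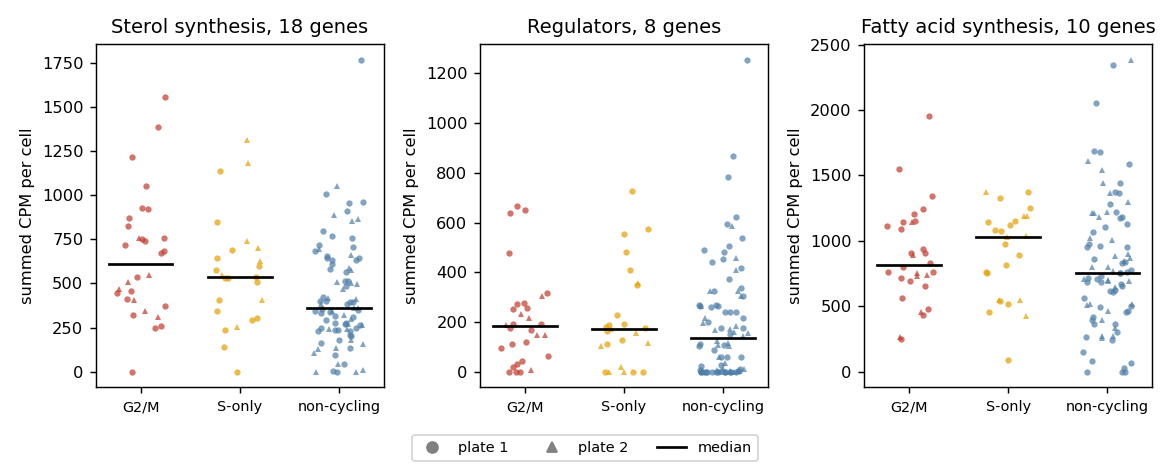
Summed CPM per cell of the sterol synthesis, regulator and fatty acid lists in G2/M, S-only and non-cycling cells. Each point is a cell, circles on plate 1 and triangles on plate 2, and lines are medians. The sterol medians are 610, 537 and 361 CPM, with wide overlap, and the fatty acid median is highest in S-only cells at 1033 CPM.

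Joint variation from cell to cell was described for the most widely read members and a few further pairs. Among the 5 most widely read genes, the median Spearman correlation of CPM over the 10 pairs was 0.01 across 143 cells, against 0.02 over all pairs of 2197 such genes. Srebf1 and Hmgcs1 were read together in 15 cells against 11.9, and Hmgcs1 and Ebp in 25 against 24.8. In counts this sparse, weak correlations cannot show whether a relation is present or absent.

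The 10 genes outside the lists most like the summed sterol CPM across the 143 cells, among 2163 genes read in at least 50% of them, were led by Phgdh, the entry enzyme of serine synthesis, at a Spearman correlation of 0.38. For Phgdh the value was 0.45 on plate 1 and 0.23 on plate 2. Cops5, a subunit of the signalosome, followed at 0.34, and then Cnbp, Txnl1, Ndufa4, Gnb2l1, Ran, Eif6, Tuba1b and Cdk11b. The sum itself correlated at 0.23 with the number of genes detected, at 0.26 with the number of G2/M genes present and at 0.14 with the summed fatty acid CPM. These values are descriptions, since all measures of a cell share its library and depth.

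Other genes of the same pathways were looked at in 3 further lists. Of 14 further genes of sterol and isoprenoid metabolism, 11 reached the minimum level, and in G2/M over non-cycling cells 5 were called higher and 2 lower, where 20.9% and 15.4% of all genes were. The higher ones were the sterol desaturase Sc5d (0.87), the prenyltransferase subunits Fntb (1.34) and Pggt1b (1.18), Nus1 of dolichol synthesis (1.00) and Lbr, a sterol reductase of the nuclear envelope (4.00). Lbr is on the G2/M list that set the class, so its value is a description and its call follows in part from the class rule. The count of 5 and the median of this list given below include Lbr and were not taken without it. The lower ones were Dhdds (-0.69), the partner of Nus1, and Rabggta (-3.09). In S-only cells Sc5d (0.84), Rabggta (0.69) and Lbr (2.28) were called higher and Dhdds (-1.12) lower, where 15.6% and 14.6% of all genes were. The most abundant of this list by pooled CPM were Fnta at 99.7, Dhdds at 40.9 and the sterol demethylase Sc4mol at 36.1.

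Of 19 further regulators, 16 reached the minimum level. Of these, 3 were called higher and 3 lower in G2/M cells, where 20.9% and 15.4% of all genes were. In S-only cells 1 was called higher and 5 lower, where 15.6% and 14.6% of all genes were. In G2/M cells the AMP kinase subunits Prkab1 (1.09) and Prkag1 (0.68) and the transcription factor Sp1 (0.78) were called higher than in non-cycling cells. Called lower were Mylip (-1.31), a ligase that degrades lipoprotein receptors, the retinoid receptor Rxra (-0.83), the usual partner of liver X receptors, and the coactivator Ncoa1 (-1.15). Mylip had 74.03 CPM in G2/M and 185 in non-cycling cells. In S-only cells Prkab1 (1.71) was called higher, and Erlin2 (-0.95), Ncoa1 (-0.999), Rxra (-1.22) and the NF-Y subunits Nfyb (-1.01) and Nfyc (-1.28) lower. Mylip, Erlin2 and Prkag1 had the highest pooled CPM of the list and were read in 74.8%, 57.3% and 51.7% of all cells.

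Of 28 further fatty acid genes, 14 reached the minimum level. Of these, 5 were called higher and 1 lower in G2/M cells, and 2 higher and 1 lower in S-only cells, to be read against the same shares over all genes. In G2/M over non-cycling cells the acyl-CoA synthetases Acsl1 (0.87) and Acsl4 (1.07), Cyb5b (1.16), the mitochondrial reductase Mecr (0.77) and the elongation-cycle dehydratase Ptplb (1.04) were called higher, and the citrate carrier Slc25a1 (-1.17) lower. Ptplb had 191 CPM in G2/M and 92.4 in non-cycling cells. In S-only cells Mecr (0.60) and the dehydratase Ptplad1 (0.73) were called higher and Mcat (-2.41) lower. The other steps of the elongation cycle were read in most cells, with Hsd17b12 at 328 pooled CPM, Tecr at 292 and Ptplad1 at 158 over all 143 cells. Over these 3 lists, the median G2/M ratio was 0.55 for sterol and isoprenoid genes with Lbr included, 0.04 for regulators and 0.43 for fatty acid genes. Over all genes tested it was 0.09.

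Markers of oligodendrocytes, cells in which sterol and fatty acid genes are abundant, were read at low level in each class. The 10 oligodendrocyte markers summed to 87.3 pooled CPM in G2/M, 112.05 in S-only and 98.8 in non-cycling cells, and Cnp, the most widely read of them, was found in 35.7% of all cells. Summed per cell, the markers ran from 0 to 362 CPM in G2/M, 0 to 549 in S-only and 0 to 629 in non-cycling cells. Their median was 14.2 CPM in G2/M, 39.6 in S-only and 0 in non-cycling cells, and 15 of 30, 17 of 25 and 37 of 88 cells of these classes had a read of at least 1 marker. The 7 markers of oligodendrocyte precursors, of which Cspg4 was the most widely read at 17.5% of all cells, summed to 33.8 pooled CPM in G2/M, 21.4 in S-only and 15.7 in non-cycling cells, the same order as the summed sterol CPM. In G2/M, S-only and non-cycling cells, their sum per cell ran from 0 to 283, 0 to 321 and 0 to 265 CPM. The part of these markers in the sterol values was not tested.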

How the data were processed

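Single-cell RNA sequencing of 143 sorted microglia was analysed from the 1 table of raw read counts, genes by cells, that the authors deposited. STAR 2.5.3a, HTSeq, Picard, Trim Galore 0.4.3 and the build mm10 are named in the submitters' processing notes; their settings, the gene annotation and the use of strand are not given in the sources used here. Column sums equalled the labelled total count in all 143 cells.

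CPM were computed from gene counts, with 92 spike-in rows left out and Rn45s kept. No cell was removed. Exon lengths came from GENCODE M21 (GRCm38), matched by symbol for 20915 of 23337 rows, and promoters from RefSeq. Cell cycle classes used published S and G2/M gene lists, at 25% of list members present. Because the cells form 1 sample, no p-value is given; shares carry exact Clopper-Pearson 95% intervals, which cover counting error only, since reads without molecular identifiers are not independent molecules. Thinning drew 250000 counts per cell with a fixed seed. Excess variability divided squared coefficients of variation by a running median over 201 genes. Named were all members, other pathway genes that were called or among the 3 highest of their list, and the 10 genes most like the sterol sum. The steps were tested on simulated counts. Members and lists were chosen with earlier results of these data known. Python 3.11.15, numpy 2.4.6, pandas 2.3.3, scipy 1.17.1 and matplotlib 3.10.9 were used. Alternatives were other scalings, filters, class limits, folds and weights, each plate alone, thinned counts and each cell left out.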

Additional observations from a re-analysis of the deposited data

How the results depend on the processing

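The counts of called members, the medians of the 3 member lists and the ratios of the 22 members tested were recomputed under other settings; the further pathway lists and the genes most like the sterol sum were not. Each called gene kept its direction, except that looser class limits gave -0.40 for Acat2 and -0.32 for Cyp51 in S-only over non-cycling cells. Acat2 in G2/M cells and Pmvk, Mvd, Nsdhl and Insig2 in S-only cells stayed called under every such setting that gave a value. At 2-fold, Hmgcs1, Scap and Nr1h2 in G2/M cells and Cyp51 and Srebf1 in S-only cells lost their call. With each cell left out in turn, a check added after the data were seen, Hmgcs1 and Scap (G2/M) and Cyp51 and Srebf1 (S-only) lost their call for at least 1 cell. Other calls were lost under looser limits (Hmgcs1, Scap, Nr1h2 and Nsdhl in G2/M, Acat2 and Cyp51 in S-only), stricter limits (Hmgcs1 and Scap), plate 1 alone (Hmgcs1, Scap, Nr1h2 and Srebf1 in G2/M, Cyp51 in S-only), spike-in scaling (Nr1h2) or the mean CPM over cells (Cyp51); the cause was not tested. In G2/M cells the count of 4 higher became 8 with spike-in scaling, 10 with no minimum level, 1 with a minimum of 50 CPM, 8 on plate 2 alone and 2 at 2-fold. The count of 2 lower became 1 with spike-in scaling (7.33%), a minimum of 50 (11.7%), looser limits (12.8%) or 2-fold (8.40%), and 9 on plate 2 (30.7%). In S-only cells the count of 5 higher became 9 with spike-in scaling (26.9%) and 0 with a minimum of 50 (11.5%). It became 8 on plate 1 (22.9%), 10 on plate 2 (27.3%) and 3 at 2-fold (7.93%). The S-only count of 2 lower became 5 with no minimum (8.69%) and 0 with a minimum of 50 (7.55%). It became 6 on plate 1 (22.1%) and 4 on plate 2 (30.1%). A plate alone and a missing minimum relax the call by construction, and a minimum of 50 tests fewer genes. For a plate alone, the minimum level was applied to the cells of that plate. These medians can therefore cover other genes than the plate medians given in the Results. The fatty acid median in G2/M cells on plate 2 differs in sign between the 2 places. Of the G2/M medians, sterol (0.55) was 0.22 with looser limits and 0.023 on plate 2. Regulators (0.37) were -0.68 with a minimum of 50 and 0.73 on plate 2. Fatty acid genes (0.13) were 0.44 with spike-in scaling, 0.059 with no minimum, 0.060 with stricter limits, 0.054 with a minimum of 50, 0.048 on plate 1, 0.11 with looser limits and 0.068 on plate 2. Of the S-only medians, sterol (0.33) was -0.18 with looser limits and 0.97 on plate 2. Regulators (0.08) were 0.35 with spike-in scaling, 0.42 with no minimum, 0.19 with stricter limits and -0.022 on plate 2. Fatty acid genes (0.34) were 0.61 with spike-in scaling, 0.17 with a minimum of 50, 0.47 with looser limits and 0.15 on plate 1. The median correlation of member pairs (0.01) was -0.051 on plate 2. Members read in at least 50% of cells numbered 4 or 5 under every alternative run. A planned change of class lists was not run, since the lists meant as the alternative define the classes here. No paired analysis was possible because all cells belong to 1 group. Depth limits what a gene at 0 or in few cells can show: a class of 25 cells with no read allows a share of up to 13.7%.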
